A study of Homo sapiens with 12 samples.

Results

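Transcripts of 37 genes of oxygen sensing, the hypoxia response and glycolysis were followed in MDA-MB-453 cells, a human breast cancer cell line. The genes were chosen by name, out of 60670 in the count table, and fall into 3 roles: 6 genes of oxygen sensing (HIF1A, EPAS1, ARNT, VHL, EGLN1, EGLN3), 12 targets of hypoxia-inducible factor (HIF) outside glycolysis, and 19 genes of glucose uptake and glycolysis. After 72 h of growth in serum-containing (10%) DMEM rich in glucose, the cells were exposed for 6 h to 10 nM dihydrotestosterone (DHT), the potent natural androgen, or to its vehicle, 0.001% ethanol. There were 6 RNA-seq libraries of each treatment, numbered 1 to 6, and the submitters describe the replicates as successive passages of the line. The labels name no group at low oxygen. The comparisons ask what 6 h of DHT did to these genes, what differed among the replicate numbers, and how the libraries numbered 2 differed from the rest.

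HIF is a pair of proteins, an oxygen-labile alpha subunit (from HIF1A or EPAS1) and the stable partner ARNT. When oxygen is present, the prolyl hydroxylases encoded by EGLN1 and EGLN3 mark the alpha subunit, and VHL then directs its destruction; when oxygen is short, the alpha subunit persists and the pair binds a short core sequence near its target genes. Many glycolytic enzymes are such targets, so an RNA profile of low oxygen in cultured tumour cells usually holds both glycolysis and genes such as CA9 and BNIP3. HIF1A activity is set largely at the level of protein, which RNA-seq does not measure. In a bulk library, RNA changed in all cells, RNA changed in some of the cells, and a changed amount of RNA per cell cannot be told apart.

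Library totals ran from 4346465 counts in Vehicle 6 to 25678781 in DHT 2. The libraries numbered 2 stood apart: along principal component 1 (52.6% of the variance) Vehicle 2 scored 76.8 and DHT 2 scored 69.1, while the other 10 libraries lay between -30.1 and 23.5, with Vehicle 5 highest. Vehicle 5 also had the largest share of mitochondrially encoded transcripts, 8.07%, against 3.09 to 5.66% in the other vehicle libraries. The DHT calls are therefore given below with and without the libraries numbered 2. For HIF1A, EGLN3, BNIP3 and NDRG1 they are also given without Vehicle 5 and without DHT 5. The 7 luminal epithelial markers were expressed, and of the 3 leukocyte markers (PTPRC, CD3E and CD14) CD3E was at 0 in all 12 libraries and the others summed to 10 counts. The 3 basal markers summed to 8.54 to 13.2 CPM (counts scaled to the size of each library) in vehicle and 1.39 to 2.14 CPM in DHT, most of it TP63, and the 4 fibroblast markers to 73.1 to 108 CPM and 58.9 to 73.3 CPM, most of it COL1A1. Their part in the DHT differences below was not tested.

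RefSeq promoter windows (GRCh38.p14) were matched for 33 of the 37 genes, with 60 windows in all because 11 genes have several start sites. The 250 bases before each start were searched on both strands for the HIF core, whose spelling is ACGTG, or GCGTG in a common variant. On the opposite strand the core reads CACGT, and the variant of it reads CACGC. The core was present in 35 of 60 windows (58.3%), against 15172 of 35116 windows of all genes (43.2%). It was present in 10 of 14 windows of HIF targets outside glycolysis (71.4%), 22 of 40 of glycolysis (55%) and 3 of 6 of oxygen sensing (50%). The palindrome CACGTG, which contains the core and is also the E-box bound by MYC-type factors, was in 9 of the 60 windows and in 6.34% of all windows. The 250 bases before 1 start site are shown for 3 glycolytic genes that were high in both libraries numbered 2, for 2 HIF targets that behaved differently there, and for HIF1A itself. They read 5′ to 3′ toward the start site, and capitals mark each run of the HIF core on either strand.
PGK1, chrX:78103998-78104247, plus strand: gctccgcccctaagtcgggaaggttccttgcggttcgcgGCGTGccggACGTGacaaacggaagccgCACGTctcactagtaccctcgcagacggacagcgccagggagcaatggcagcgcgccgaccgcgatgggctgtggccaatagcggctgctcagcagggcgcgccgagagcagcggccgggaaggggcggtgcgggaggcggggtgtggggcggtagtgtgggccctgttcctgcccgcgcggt
LDHA, chr11:18394313-18394562, plus strand: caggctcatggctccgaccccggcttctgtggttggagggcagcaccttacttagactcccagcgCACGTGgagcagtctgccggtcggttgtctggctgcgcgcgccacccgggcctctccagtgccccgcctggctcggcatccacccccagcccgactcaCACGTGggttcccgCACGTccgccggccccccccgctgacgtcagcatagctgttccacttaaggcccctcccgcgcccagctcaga
ENO1, chr1:8878687-8878936, minus strand: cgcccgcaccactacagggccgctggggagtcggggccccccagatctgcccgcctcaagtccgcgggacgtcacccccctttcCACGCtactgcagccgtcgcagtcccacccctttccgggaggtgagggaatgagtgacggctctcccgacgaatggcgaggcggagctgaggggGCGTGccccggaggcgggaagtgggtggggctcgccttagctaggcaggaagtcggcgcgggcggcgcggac
BNIP3, chr10:131981924-131982173, minus strand: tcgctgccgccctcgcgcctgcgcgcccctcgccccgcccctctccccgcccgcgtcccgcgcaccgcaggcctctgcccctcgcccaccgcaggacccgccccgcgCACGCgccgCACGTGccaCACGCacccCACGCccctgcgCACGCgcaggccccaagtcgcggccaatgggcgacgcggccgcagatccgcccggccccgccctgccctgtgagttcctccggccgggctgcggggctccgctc
CA9, chr9:35673678-35673927, plus strand: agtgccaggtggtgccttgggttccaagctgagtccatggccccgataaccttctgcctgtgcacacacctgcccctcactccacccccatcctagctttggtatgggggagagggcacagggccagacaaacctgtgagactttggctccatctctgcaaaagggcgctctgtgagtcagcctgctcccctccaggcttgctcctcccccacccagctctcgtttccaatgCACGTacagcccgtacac
HIF1A, chr14:61695263-61695512, plus strand: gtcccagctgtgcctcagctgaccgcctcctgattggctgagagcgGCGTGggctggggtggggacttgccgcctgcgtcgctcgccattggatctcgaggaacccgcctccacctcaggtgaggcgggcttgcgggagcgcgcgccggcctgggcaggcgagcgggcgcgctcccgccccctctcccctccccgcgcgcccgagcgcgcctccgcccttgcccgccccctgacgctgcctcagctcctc
In the BNIP3 window 5 runs lay between 143 and 104 bases before the start site, and in the PGK1 window 3 runs lay between 211 and 183 bases before it. The CA9 window held 1 run, 18 bases before the start. The windows of PKM, PGAM1 and SLC2A1, which were also high in both libraries numbered 2, held 0 runs. Those of HK2, which was not high there, held 3 and 4. These matches describe letters and not bound sites.

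DHT changed few of these genes in a test that did not use the replicate number. HIF1A rose and EGLN3, the hydroxylase that can act on its protein, fell. The other 34 tested genes did not pass. In edgeR's quasi-likelihood test with Benjamini-Hochberg adjustment over 16355 genes, at an adjusted p under 0.05, 1 of the 36 tested genes rose (1.96% of all tested genes rose) and 1 fell (0.88% of all fell). ADM, the gene of the peptide adrenomedullin, had too few counts to be tested, with 0.657 ± 0.379 CPM in vehicle and 0.249 ± 0.217 CPM in DHT (SD, n = 6 each). At an unadjusted p under 0.05, 5 members were higher (6.59% of all tested genes) and 1 was lower (5.41% of all). The median log2 fold change was -0.14 in oxygen sensing, 0.14 in the other HIF targets and -0.03 in glycolysis, beside -0.05 over all tested genes. These medians moved with the libraries numbered 2: without DHT 2 and without Vehicle 2 they were -0.16 and -0.02 in oxygen sensing, 0.03 and 0.32 in the other HIF targets, and -0.25 and 0.30 in glycolysis.

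HIF1A, the oxygen-regulated alpha subunit (chr14:61695513-61748259, GRCh38), had a median of 94.6 CPM in the vehicle libraries, from 67.9 in Vehicle 5 to 103 in Vehicle 4. In DHT its median was 142 CPM, from 122 in DHT 2 to 146 in DHT 3. Every DHT library lay above every vehicle library, as was so for 2.28% of all tested genes. The log2 fold change was 0.62 (SE 0.12, edgeR adjusted p = 0.0116), which is 1.53-fold. With the replicate number as a block it was 0.63 (SE 0.08, adjusted p = 0.0014), and without the libraries numbered 2 it was 0.60 (adjusted p = 0.0075). HIF1A passed in 19 of 19 alternative settings.

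EGLN3 lies on the same chromosome (chr14:33924227-34462774) and was the most abundant gene of oxygen sensing per transcript length, at 316 ± 62.7 TPM (counts scaled by transcript length and library size; SD, n = 6) in vehicle. Its vehicle median was 757 CPM, from 718 in Vehicle 2 to 938 in Vehicle 5. Its DHT median was 540 CPM, from 455 in DHT 6 to 608 in DHT 2. Every DHT library lay below every vehicle library, as was so for 0.991% of all tested genes. The log2 fold change was -0.54 (SE 0.12, edgeR adjusted p = 0.0220). With the replicate block the adjusted p was 0.0058. Without the libraries numbered 2 the log2 fold change was -0.60, with an edgeR adjusted p of 0.0031 with no block and 0.0080 with it. EGLN3 passed in 14 of 19 alternative settings. The call was lost when DHT 1, DHT 3, DHT 4 or DHT 6 was left out (adjusted p from 0.0511 to 0.0720, log2 fold changes from -0.56 to -0.50) and when genes of low counts were kept (adjusted p = 0.166, log2 fold change -0.52). In the authors' deposited table of this contrast, EGLN3 had a log2 fold change of -0.45 with a false discovery rate of 0.137, and HIF1A 0.56 with 0.0088.

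The other 4 genes of oxygen sensing did not pass for DHT with or without the block. EPAS1, the alternative alpha subunit, ranged from 54.3 to 112 CPM in vehicle and from 67.9 to 86.1 CPM in DHT. ARNT ranged from 51.9 to 114 CPM in vehicle and from 62.2 to 91.1 CPM in DHT. VHL ranged from 54.0 to 96.7 CPM and from 56.8 to 71.3 CPM, and EGLN1 from 9.27 to 38.9 CPM and from 14.0 to 34.9 CPM. The treatments overlapped for all 4.

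With the replicate number as a block, 7 of the 36 tested genes rose (4.67% of all tested genes rose) and 1, EGLN3, fell (3.19% of all fell). The genes that passed in edgeR with the block and not in edgeR without it were VEGFA, BNIP3, NDRG1 and PDK1 among the HIF targets and SLC2A1 and PFKP in glycolysis. Over all tested genes the call count went from 464 (2.84%) without the block to 1286 (7.86%) with it, so a rise in the members' count accompanied a rise everywhere. The block does not stand on a stated pairing, since the labels give none. The correlation of same-numbered libraries was above 0 in 5 of 6 numbers and below it in number 5 (r = -0.26). Number 2 alone correlated better with itself than with any other number. In number 5 BNIP3 and NDRG1 did not follow the other numbers, and they were not alone. There LDHA, TPI1 and GPI were lower in DHT, by -0.73, -0.95 and -0.97 on the log2(CPM + 0.5) scale. HIF1A, VEGFA and EGLN1 were higher there by 0.90, 0.86 and 1.48, the largest difference of each in any number. Without Vehicle 5, HIF1A had a log2 fold change of 0.55 and EGLN3 one of -0.49 in edgeR with no block (adjusted p = 0.0105 and 0.0205), and without DHT 5 they had 0.64 and -0.55 (adjusted p = 0.0217 and 0.0491). BNIP3 had an adjusted p of 0.0524 without Vehicle 5 and of 0.0274 without DHT 5, and NDRG1 of 0.628 and 0.530.

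**Figure D1:**
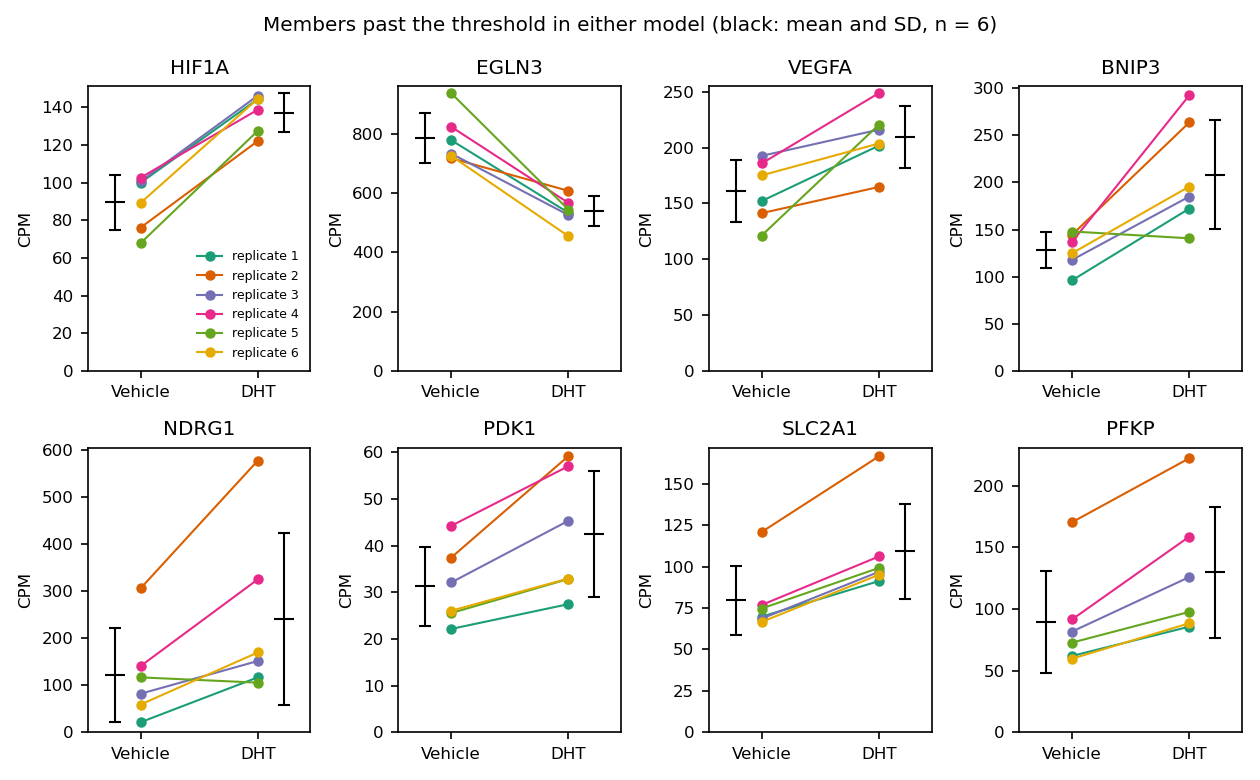
CPM of the 8 genes that passed for DHT with or without the replicate block, 1 panel a gene, each line joining the vehicle and DHT libraries of a number and black marks giving the mean and SD (n = 6). HIF1A and EGLN3 were the genes whose treatments did not overlap, and lines for SLC2A1, PFKP and PDK1 ran upward in all 6 numbers.

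Among HIF targets outside glycolysis, 0 of 11 tested genes passed in edgeR without the block. By unadjusted p under 0.05, 2 were higher there (6.59% of all tested genes) and 0 lower (5.41% of all). DESeq2 called 1 raised, BNIP3, and 0 lowered, beside 510 raised and 283 lowered among all 16355 genes. BNIP3 encodes a protein of mitophagy. Its vehicle median was 131 CPM, from 96.2 in Vehicle 1 to 148 in Vehicle 5, and its DHT median was 190 CPM, from 141 in DHT 5 to 293 in DHT 4. DHT 5 lay inside the vehicle range. The log2 fold change was 0.70 (SE 0.18, edgeR adjusted p = 0.0502), and it was 0.67 (adjusted p = 0.0125) with the block. BNIP3 passed in 6 of 19 alternatives, and without the libraries numbered 2 its adjusted p was 0.0419 with no block and 0.0512 with it. Its 44 annotated pseudogenes together held 43.7 CPM in vehicle and 68.7 CPM in DHT, and how reads were split between them and BNIP3 was not tested.

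NDRG1, a stress-responsive gene that androgen is also known to raise in prostate cells, varied widely among libraries of 1 treatment. Its vehicle median was 99.7 CPM, from 21.7 in Vehicle 1 to 307 in Vehicle 2, and its DHT median was 161 CPM, from 106 in DHT 5 to 578 in DHT 2. The ranges overlapped broadly. DHT was higher in 5 of 6 numbers, by 0.88 to 2.40 on the log2(CPM + 0.5) scale, and lower by -0.15 in number 5. The log2 fold change was 0.99 (SE 0.55, edgeR adjusted p = 0.563) without the block and 1.12 (SE 0.25, adjusted p = 0.0235) with it. Without the libraries numbered 2 and with the block the adjusted p was 0.0700. The authors' deposited table gives NDRG1 a log2 fold change of 1.21 with a false discovery rate of 0.0065.

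VEGFA, the angiogenic growth factor, had a vehicle median of 164 CPM (121 in Vehicle 5 to 193 in Vehicle 3) and a DHT median of 210 CPM (165 in DHT 2 to 249 in DHT 4). It was higher in DHT in 6 of 6 numbers, and its log2 fold change was 0.37 (SE 0.14, edgeR adjusted p = 0.228). With the block the adjusted p was 0.0457, and without the libraries numbered 2 as well it was 0.0942. PDK1, the kinase that restrains pyruvate entry into the mitochondria, had a vehicle median of 29.1 CPM (22.2 in Vehicle 1 to 44.2 in Vehicle 4) and a DHT median of 39.1 CPM (27.5 in DHT 1 to 59.2 in DHT 2). Both ranges were wide and overlapped, while the differences within a number were narrow, from 0.30 to 0.65 on the log2(CPM + 0.5) scale. Its edgeR adjusted p was 0.477 without the block and 0.0109 with it, and 0.0384 with the block and without the libraries numbered 2.

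Of the remaining HIF targets, BHLHE40, a transcriptional repressor, was higher in DHT in 6 of 6 numbers, with a log2 fold change of 0.28 (SE 0.14, edgeR adjusted p = 0.456) and 0.0712 with the block. P4HA2, a collagen prolyl hydroxylase, was lower in 6 of 6 numbers at -0.20 (SE 0.13, adjusted p = 0.671). CA9, the carbonic anhydrase used as a hypoxia marker, had a log2 fold change of -0.26 with an SE of 0.75. BNIP3L, P4HA1, ANKRD37 and SLC16A3 (a lactate exporter) had log2 fold changes from -0.25 to 0.14. None of these 7 passed with or without the block.

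In glycolysis, 0 of 19 genes passed in edgeR without the block. At an unadjusted p under 0.05, 2 were higher, SLC2A1 and PFKM (6.59% of all tested genes), and 0 lower (5.41% of all). DESeq2 called 0. With the block SLC2A1 and PFKP rose. SLC2A1, the glucose transporter GLUT1, had a vehicle median of 72.2 CPM, from 66.6 in Vehicle 6 to 121 in Vehicle 2, and a DHT median of 98.0 CPM, from 91.2 in DHT 1 to 166 in DHT 2. Vehicle 2 was the only vehicle library inside the DHT range. Within numbers DHT was higher by 0.38 to 0.51 on the log2(CPM + 0.5) scale, the narrowest of these ranges. The log2 fold change was 0.45 (SE 0.18, edgeR adjusted p = 0.302) and 0.45 (SE 0.07, adjusted p = 0.0033) with the block. Without the libraries numbered 2 and with no block it passed as well, at adjusted p = 0.0035.

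PFKP, the platelet-type phosphofructokinase, had a vehicle median of 77.4 CPM, from 59.8 in Vehicle 6 to 171 in Vehicle 2. Its DHT median was 112 CPM, from 85.8 in DHT 1 to 222 in DHT 2. DHT was higher in 6 of 6 numbers, by 0.38 to 0.79 on the log2(CPM + 0.5) scale. The log2 fold change was 0.53 (SE 0.29, edgeR adjusted p = 0.545), and with the block it was 0.54 (SE 0.08, adjusted p = 0.0028). Leaving out the libraries numbered 2 as well gave an adjusted p of 0.0083. The other phosphofructokinase genes did not pass, with -0.15 (SE 0.29) for PFKL, the liver type, and 0.29 (SE 0.10, adjusted p = 0.227) for PFKM, the muscle type. In the authors' deposited table PFKP had a false discovery rate of 0.0017 and SLC2A1 one of 0.0117.

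None of the enzymes downstream of phosphofructokinase passed for DHT with or without the block. Their log2 fold changes ran from -0.19 for GAPDH to 0.14 for LDHA, with SEs from 0.15 to 0.43, and the sign of every one of them turned when 1 library or another was left out. LDHA, ENO1, PGK1 and PGAM1 were higher in DHT in 5 of 6 numbers and lower in number 5. The differences in number 5 were -0.73, -0.66, -0.54 and -0.27 on the log2(CPM + 0.5) scale. TPI1 was higher in 4 numbers, ALDOA, ALDOC, GAPDH and ENO2 in 3, and PKM in 2. PGK1, which makes the first ATP of the pathway, had a log2 fold change of 0.00 with an SE of 0.37, and of -0.01 with an SE of 0.12 with the block. Upstream, HK1, HK2, GPI and the regulatory enzymes PFKFB3 and PFKFB4 had log2 fold changes from -0.27 to 0.03 and did not pass either. In DHT and vehicle alike GAPDH was the most abundant member by length, at 2098 ± 573 TPM in vehicle. ENO1 followed at 834 ± 194 TPM, LDHA at 604 ± 176 TPM and PGK1 at 575 ± 213 TPM, of which LDHA and PGK1 do not differ beyond their spread.

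**Figure D2:**
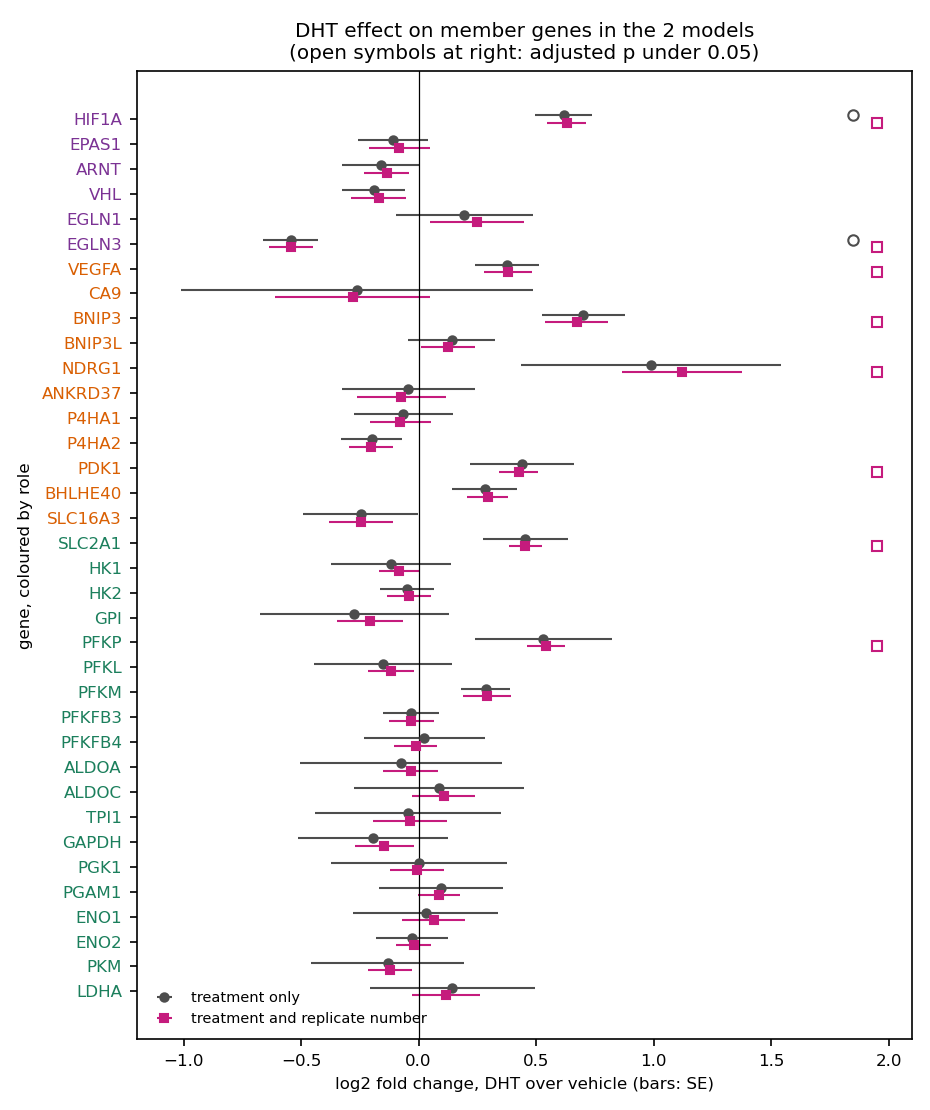
Log2 fold change of DHT against vehicle for the 36 tested genes, grouped by role, with bars of 1 SE, from edgeR with (squares) and without (circles) the replicate number as a block; open symbols at the right mark an adjusted p under 0.05. The block SEs are shorter for the glycolytic genes, while the estimates hardly move.

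The replicate number accounted for much more of the spread in glycolysis than DHT did. In edgeR's joint test of the 5 replicate-number terms, 23 of 36 members passed, against 33% of all tested genes. They were 16 of 19 in glycolysis, 6 of 11 among the other HIF targets and 1 of 6 (ARNT) in oxygen sensing. As a share of the sum of squares, the median over the glycolytic genes was 90.1% on the replicate number (5 terms) and 0.936% on DHT (1 term), each median taken separately. The corresponding medians were 71.6% and 21.7% for the other HIF targets, 44.6% and 10.2% for oxygen sensing, and 64.7% and 5.38% over all tested genes. With 5 terms against 1, the replicate number takes the larger share on average even in a gene with no effect of either. A larger share alone therefore does not show an effect. NDRG1, PDK1, SLC2A1 and PFKP, 4 of 36 members, passed both the replicate-number test and the blocked test of DHT, beside 496 of all 16355 tested genes.

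The replicate-number test rested on the libraries numbered 2. With both left out, 0 of the tested members passed in edgeR, 9 had an unadjusted p under 0.05, and 9 genes of the whole table passed, on 10 libraries. Leaving out Vehicle 2 alone left 5 members, beside 179 of all 16540 tested genes, and leaving out DHT 2 alone left 14, beside 1690 of 16546. Leaving out DHT 5 gave 34 members, beside 11847 of 16559 genes, and leaving out Vehicle 5 gave 30, beside 9834 of 16506.

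The libraries numbered 2 had high glycolytic transcripts in both treatments. Summed over the 19 genes, glycolysis reached 18559 CPM in Vehicle 2 and 17932 CPM in DHT 2. The other vehicle libraries lay between 6467 CPM and 10495 CPM, with Vehicle 5 highest, and the other DHT libraries between 6560 CPM and 9286 CPM, with DHT 4 highest. Number 2 was singled out with results of these data known, so its differences are a description without a test.

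**Figure D3:**
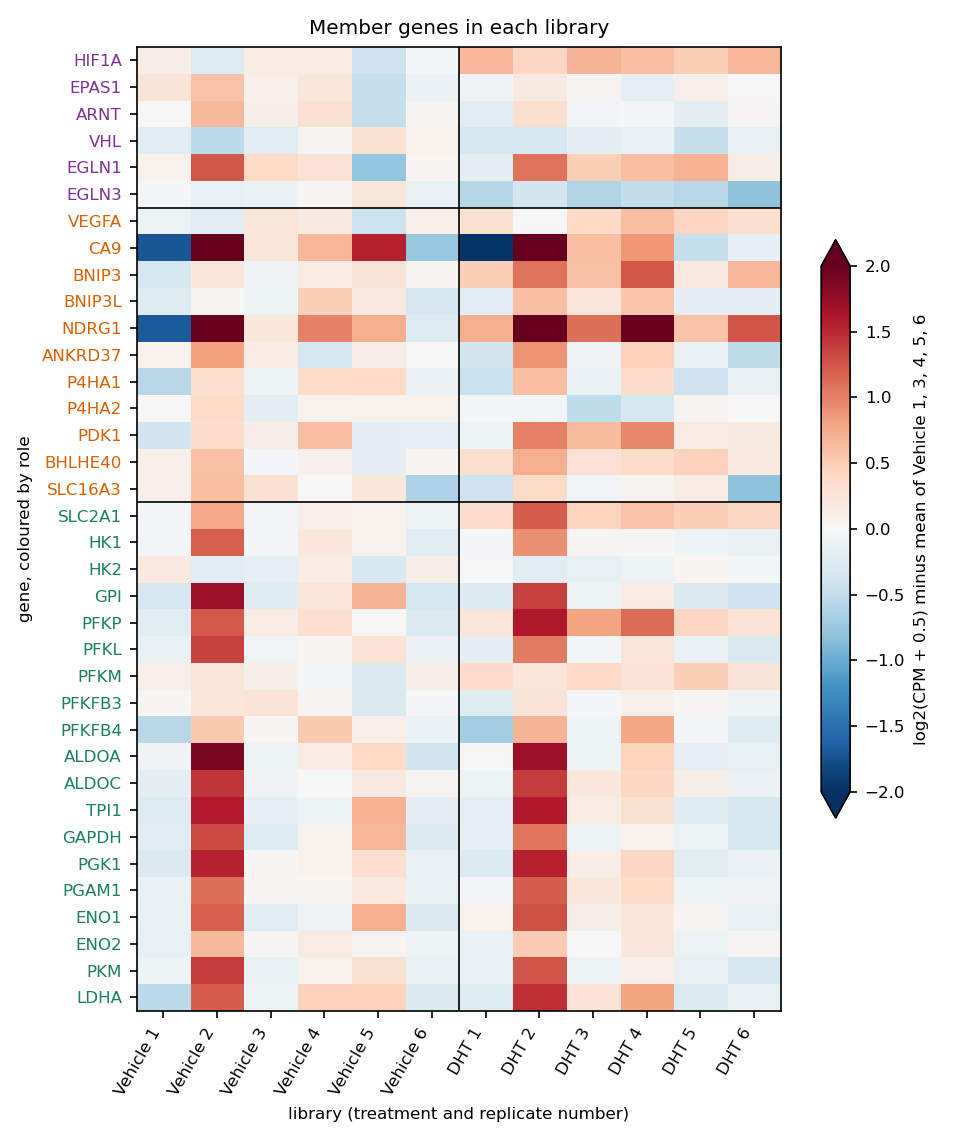
Colour gives log2(CPM + 0.5) of the 36 tested genes in each of the 12 libraries minus the mean of Vehicle 1, 3, 4, 5 and 6, with rows grouped by role and colours ending at 2 and -2. The columns of Vehicle 2 and DHT 2 are high over most of glycolysis and over CA9 and NDRG1, while HK2 is not high there, nor VEGFA and HIF1A against the other libraries of each treatment.

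A member was counted as above when both libraries numbered 2 exceeded the other 5 of their treatment. This was so for 23 of 36 members, against 26.6% of all tested genes, and 0 members lay below in both, against 25.5%. By role it was 15 of 19 in glycolysis, 5 of 11 among the other HIF targets and 3 of 6 in oxygen sensing. A difference of at least 1 log2 in both treatments was found in 14 members, of which 12 were glycolytic, and in 5.45% of all tested genes. The median difference in vehicle and in DHT was 1.21 and 1.13 for glycolysis, 0.39 and 0.60 for the other HIF targets, and 0.21 and 0.21 for oxygen sensing. Scaling by library totals alone shifted the median of all genes to -0.33 in vehicle and -0.28 in DHT, from about 0. On that scale 19 members lay above in both treatments and 2 below, and the share over all genes was not taken. Glycolysis then stood at 0.85 and 0.83 and the other HIF targets at 0.04 and 0.33, while the oxygen sensing medians changed sign to -0.15 and -0.10.

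Among glycolytic enzymes ALDOA, GPI and TPI1 differed most. ALDOA, the main aldolase, had 124 CPM in Vehicle 2 and 109 CPM in DHT 2, against 25.2 to 44.0 CPM in the other vehicle libraries and 29.5 to 45.3 CPM in the other DHT libraries, and its median over a treatment was 34.0 and 31.7 CPM. GPI, which makes fructose 6-phosphate, had 1684 and 1317 CPM there, against 400.1 to 821 CPM and 383 to 571 CPM. TPI1, which interconverts the triose phosphates, had 929 and 937 CPM, against 258 to 501 CPM and 249 to 382 CPM. For all 3 the libraries numbered 2 stood clear of every other library of their treatment. ALDOA shares 54.7% of its exon bases with other annotated genes, so its level is uncertain. Its 2 pseudogenes held 54.6 CPM in vehicle and 51.4 CPM in DHT, beside gene means of 48.6 and 46.2 CPM. The 4 TPI1 pseudogenes held 115 and 111 CPM, beside gene means of 420 and 407 CPM. How reads were split between these pseudogenes and the genes was not tested. Number 2 exceeded the mean of the other 5 libraries by 3.67-fold in vehicle and 3.25-fold in DHT for ALDOA, 3.17-fold and 2.89-fold for GPI, and 2.92-fold and 3.11-fold for TPI1.

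The rest of the lower pathway was also high in the libraries numbered 2. PGK1 exceeded the mean of the others by 2.89-fold in vehicle and 2.92-fold in DHT, PKM by 2.62-fold and 2.57-fold, GAPDH by 2.40-fold and 2.28-fold, and LDHA by 2.22-fold and 2.52-fold. The GAPDH pseudogenes, 65 in number, held 726 CPM in vehicle and 640.4 CPM in DHT, and how reads were split between them and GAPDH was not tested. The values of isoenzymes were unlike one another, as given here without a test. HK1, the widely expressed hexokinase, had 723 CPM in Vehicle 2 and 594 CPM in DHT 2, against at most 362 and 320 CPM elsewhere. HK2, the hexokinase usually listed as the HIF target, had 177 and 176 CPM, against 166 to 234 CPM and 186 to 213 CPM. PFKL and PFKP were 2.55-fold and 2.31-fold above the mean of the other vehicle libraries, and PFKM was 1.18-fold.

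**Figure D4:**
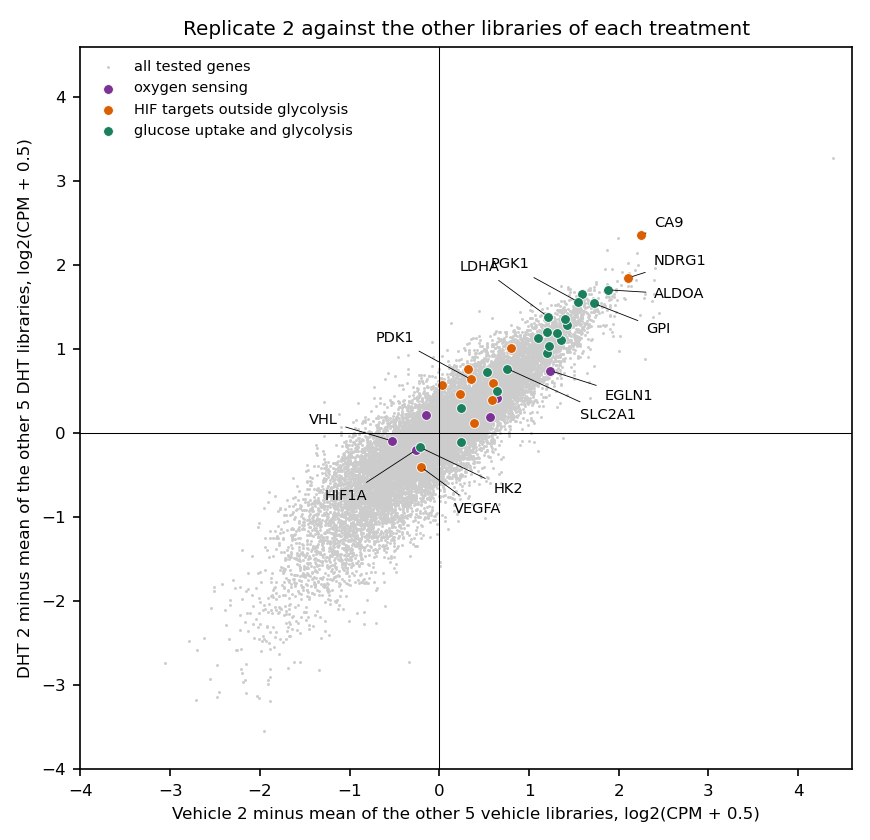
For each gene, the log2(CPM + 0.5) difference between the library numbered 2 and the mean of the other 5 libraries, in vehicle (horizontal) and DHT (vertical), with all 16355 tested genes in grey. Of the 19 glycolytic genes 12 lie at 1 or more on both axes, CA9 lies at 2.25 and 2.36, and VEGFA, HIF1A and HK2 lie below 0 on both.

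Of the 11 tested HIF targets outside glycolysis, 10 were higher in the libraries numbered 2 than the log2 mean of the others, in both treatments. VEGFA was the exception. With scaling by library totals alone this held for 6 of 11. The libraries numbered 2 exceeded every other library of their treatment for 5 of 11. CA9 had a vehicle median of 3.66 CPM, from 0.419 in Vehicle 1 to 13.8 in Vehicle 2, and a DHT median of 3.11 CPM, from 0.270 in DHT 1 to 12.7 in DHT 2. Number 2 was highest in both treatments, and in vehicle the next was 8.25 CPM in Vehicle 5. NDRG1 was 3.64-fold and 3.32-fold above the mean of the others. ANKRD37, an ankyrin-repeat protein gene, had 7.12 CPM in Vehicle 2 and 7.61 CPM in DHT 2, against 2.95 to 4.31 CPM and 2.58 to 5.52 CPM. CA9 shares 36.1% of its exon bases with ARHGEF39 and ANKRD37 shares 40.3% with UFSP2. VEGFA was lower there, at 0.85-fold in vehicle and 0.76-fold in DHT, and lowest of all DHT libraries in DHT 2.

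In oxygen sensing EGLN1, ARNT and EPAS1 were highest in the libraries numbered 2. EGLN1 had 38.9 CPM in Vehicle 2 and 34.9 CPM in DHT 2, with medians of 18.4 CPM in vehicle and 23.8 CPM in DHT. It shares 55.8% of its exon bases with 1 other annotated gene, which was at 0 CPM in both treatments, so its level is uncertain. ARNT had 114 and 91.1 CPM, with medians of 77.3 and 70.4 CPM. EPAS1 had 112 and 86.1 CPM, with medians of 85.4 and 77.3 CPM. Vehicle 5 held the lowest vehicle value for all 3. HIF1A was not raised, with 76.1 CPM in Vehicle 2 and 122 CPM in DHT 2, the lowest DHT library. The ratio to the mean of the others was 0.83 in vehicle and 0.87 in DHT.

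Outside number 2, DHT 4 came next. It was second highest of the DHT libraries for 15 of 19 glycolytic genes and 6 of 11 HIF targets, and its summed CPM for the HIF targets (1428) was second to DHT 2 (1673). In vehicle the second place in glycolysis was shared, by Vehicle 5 for 10 genes and by Vehicle 4 for 7. The median HIF target lay above the other libraries in DHT 4 by 0.50 and in Vehicle 4 by 0.27 on the log2(CPM + 0.5) scale.

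**Figure D5:**
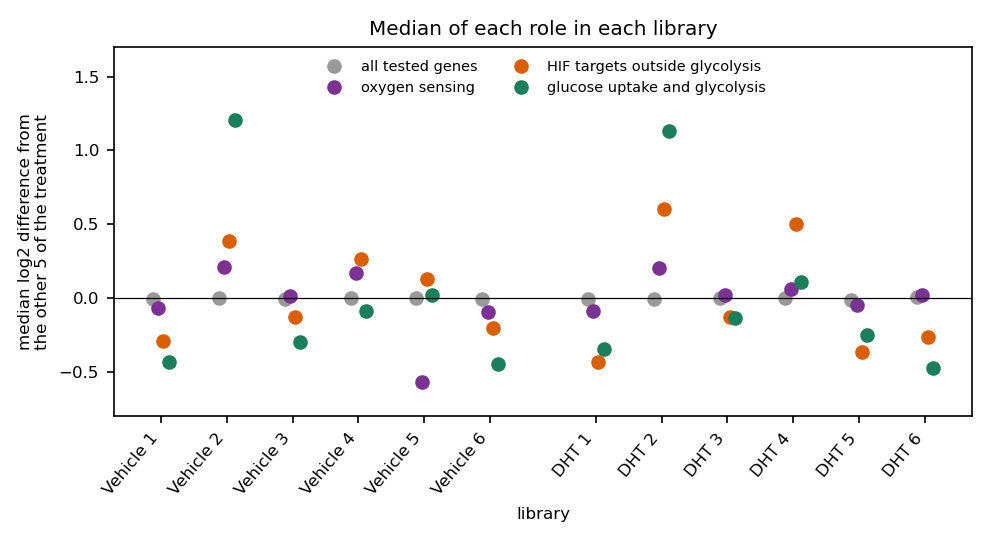
Median log2(CPM + 0.5) difference of each library from the mean of the other 5 libraries of its treatment, for each role and for all tested genes. Only Vehicle 2 and DHT 2 exceed 1 in glycolysis, at 1.21 and 1.13, while the medians of all genes lie near 0.

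A wider list of hypoxia genes, 41 by name with 33 tested, had 3 raised (1.96% of all tested genes rose) and 1 lowered (0.88% of all) by DHT, and 6 raised (4.67% of all) and 4 lowered (3.19% of all) with the block. KDM4B, a histone demethylase, rose from 73.6 ± 20.7 to 154 ± 29.9 CPM (SD, n = 6; log2 fold change 1.06, edgeR adjusted p = 0.0045). MXI1, a MYC antagonist, rose by 0.52 (adjusted p = 0.0174), and STC2, a secreted glycoprotein, by 1.10 (adjusted p = 0.0212). CXCR4, the chemokine receptor, fell from 24.4 ± 7.25 to 8.71 ± 4.05 CPM (-1.47, adjusted p = 0.0077). CITED2, a competitor of HIF for its coactivator, and EFNA1 passed with the block and not without it (0.82, adjusted p = 0.0004, and -0.33, adjusted p = 0.0354). In the libraries numbered 2, 10 of the 33 lay above (26.6% of all tested genes) and 8 below (25.5% of all), with median differences of 0.05 in vehicle and 0.12 in DHT.

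A list of 58 other genes of carbon metabolism, 42 of them tested, had 2 raised (1.96% of all tested genes rose) and 0 lowered by DHT in edgeR. By unadjusted p under 0.05 in edgeR, 9 were higher (6.59% of all) and 0 lower (5.41% of all). DESeq2 called 5 raised and 0 lowered, beside 510 raised and 283 lowered among all 16355 genes. MPC2, a subunit of the mitochondrial pyruvate carrier, rose from 90.7 ± 26.9 to 179 ± 24.0 CPM (SD, n = 6; log2 fold change 0.98, edgeR adjusted p = 0.0051). SLC16A1, a monocarboxylate transporter, rose from 8.48 ± 3.21 to 19.6 ± 5.34 CPM (1.20, adjusted p = 0.0260). Its levels in the libraries numbered 2 were the lowest of each treatment, 3.63 and 12.6 CPM, opposite to the glycolytic enzymes. With the block 7 rose (4.67% of all) and 1 fell (3.19% of all), and RPIA, PDHX, PFKFB2 and PDP2 were among those that passed in edgeR with the block and not without it, at log2 fold changes of 0.40, 0.31, 0.69 and 0.42. In the libraries numbered 2, 19 of the 42 lay above (26.6% of all tested genes) and 12 below (25.5% of all).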

How the data were processed

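MDA-MB-453 RNA was sequenced in 6 vehicle and 6 DHT libraries (single-end reads of 40 bp from 1 µg RNA, per the labels' protocols; the labels name a total RNA kit and the series' design text names poly-A RNA, and these were not reconciled). The submitters' processing notes name STAR, featureCounts and GRCh38. The authors deposited estimated counts per gene, of which 39.6 to 46.7% per library were not whole among the values above 0, and these were rounded. The authors' table of the same contrast was deposited with log2 fold changes, p-values and false discovery rates, and is quoted only where named; no source used here gives its model. A record broken over 3 lines was left out. Genes were named for 60400 of 60670 IDs.

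Low genes were removed with filterByExpr, TMM factors were applied, and the counts were fitted with edgeR 4.0.16 in R 4.3.3, with limma 3.58.1 loaded, by quasi-likelihood F-tests with Benjamini-Hochberg adjustment at 0.05. The fits were treatment alone, treatment with the replicate number as a block, and a joint test of the 5 replicate-number terms. SE was taken from the F statistic. CPM used TMM-scaled totals, logs a pseudocount of 0.5, and TPM the deposited exon lengths. DESeq2 1.42.0 and other alternatives are in the closing section. The script was tested on simulated data. Deviations from treatment means of same-numbered libraries correlated at 0.54, 0.89, 0.47, 0.27, -0.26 and 0.52 for numbers 1 to 6, and no source says that a number marks a shared culture. P-values of the fit without the block rest on the spread between libraries of a treatment. Those of the blocked fit and of the joint test rest on the spread left after treatment and replicate number. Every library is given for members past 0.05 for DHT in either fit and for the 3 per role that differ most in number 2, as lowest, median and highest; wider lists name at most 6 by smallest p. The members and lists were chosen with earlier results of these data known.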

Additional observations from a re-analysis of the deposited data

Results flagged for a closer look

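Each of the 74 sets of 6 libraries (37 genes in 2 treatments) was examined for a single library far from the others, by its gap to the nearest library as a share of the whole range, with a limit of 0.625. In 26 sets the limit was passed, in each by the library numbered 2 as the highest, 14 times in vehicle and 12 times in DHT. Chance flags about 1 in 20 such sets taken singly, which is no baseline here because the genes share their libraries. Over all tested genes both libraries numbered 2 lay above the other 5 for 26.6% and below for 25.5%. The share of all genes that this limit would flag was not computed, so the flags are a description. The share was 0.672 in vehicle for ANKRD37 and 0.68 for BHLHE40, both HIF targets outside glycolysis. For the transporter SLC2A1 it was 0.812 in vehicle and 0.803 in DHT, and for HK1 0.797 and 0.891. For GPI it was 0.672 and 0.798, for PFKL 0.822 and 0.702, and for PFKP 0.712 in vehicle. The aldolases gave 0.809 and 0.802 for ALDOA and 0.856 and 0.757 for ALDOC, and TPI1 gave 0.637 and 0.807. PGK1 gave 0.79 and 0.758, PGAM1 0.812 and 0.747, and PKM 0.814 and 0.837. In DHT alone it was 0.796 for GAPDH and 0.835 for ENO1, and in vehicle alone 0.674 for ENO2. No gene of oxygen sensing was among them.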

How the results depend on the processing

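The count of genes changed by DHT was 464 of 16355; it was 1286 with the replicate block, 793 in DESeq2, 920 without both libraries numbered 2, 788 without them and with the block, and 278 (without DHT 1) to 619 (without Vehicle 2) with 1 library left out. Of the members, 2 passed; it was 8 with the replicate block, 1 with genes of low counts kept, 4 without both libraries numbered 2, 5 without them and with the block, and 1 (without DHT 1, 3, 4 or 6) to 4 (without Vehicle 2) with 1 library left out. The glycolysis median, -0.03, moved from -0.25 without DHT 2 to 0.30 without Vehicle 2, that of the other HIF targets, 0.14, from 0.03 to 0.32, and that of oxygen sensing, -0.14, from -0.16 to -0.02. The 5400 genes that differed among replicate numbers became 8227 with genes of low counts kept, 9 without both libraries numbered 2, and 179 (without Vehicle 2) to 11847 (without DHT 5) with 1 library left out. The 23 members became 0 without both and ranged from 5 (without Vehicle 2) to 34 (without DHT 5). Over single members and alternatives, 604 DHT values kept direction and side of the threshold, 16 passed newly, 5 were lost and 59 changed sign; of replicate-number calls 471 kept their side, 27 passed newly and 78 were lost. The cause was not tested. RLE scaling and unrounded counts, the latter chosen after seeing the data, changed no count by over 1.5 times. The 59 belong to 18 members, none of which passed in edgeR with or without the block, and the lowest adjusted p among them was 0.513. With the replicate block the log2 fold change was -0.012 for PFKFB4 and -0.0063 for PGK1; without both libraries numbered 2 it was -0.017 for PFKFB4 and 0.0058 for ENO2, and with the block as well -0.048 for PFKFB4, -0.0091 for PGK1 and 0.0045 for ENO2. With 1 library left out the log2 fold change ran from -0.13 to 0.15 for PFKFB4, from -0.40 to 0.39 for PGK1, from -0.28 to 0.50 for ALDOC, from -0.25 to 0.30 for ENO1, from -1.01 to 0.32 for CA9, from -0.30 to 0.14 for ANKRD37, from -0.33 to 0.16 for HK1, from -0.67 to 0.17 for GPI, from -0.41 to 0.18 for PFKL, from -0.093 to 0.016 for PFKFB3, from -0.54 to 0.45 for ALDOA, from -0.48 to 0.35 for TPI1, from -0.48 to 0.11 for GAPDH, from -0.13 to 0.10 for ENO2, from -0.47 to 0.21 for PKM, from -0.22 to 0.015 for P4HA1, from -0.17 to 0.34 for PGAM1 and from -0.18 to 0.41 for LDHA. Under library totals the oxygen sensing medians of number 2 changed sign. Replicate numbers do not pair the libraries by a stated design. Same-numbered libraries correlated above 0 except in number 5, at r = -0.26. Number 2 was the only one that correlated best with itself, while 5 numbers correlated better with another. ADM had too few counts to be tested, and the tested members with under 6 CPM in both treatments were ALDOC, ANKRD37, CA9 and SLC16A3.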
